A study of Mus musculus with 2 samples.

Results

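The 37 genes described here mark lymphocytes and natural killer (NK) cells, and they were followed in whole liver of wild-type (WT) and CREBH-Tg mice. They were taken from a fixed list of symbols, and a gene was matched to its probes through the transcript accession that the array files give for each probe. All 37 had at least 1 probe, among 20660 genes that could be named on the array. Both genotypes are of the C57B6J background and were fed the HFHS diet for 12 weeks. The WT mice carry no transgene, and the CREBH-Tg mice carry a cDNA for the active form of human CREBH that is overexpressed mainly in liver. The promoter that drives the transgene, the age and sex of the mice and the number of livers in each pool are not given in the sources used here. Livers were pooled within a genotype. Both pools were hybridised on the same slide, 1 Agilent array each, so there were no replicates and no difference below was tested.

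T cells recognise antigen through a receptor whose signal is carried by the CD3 chains, passed on by the kinases LCK and ZAP70 and the adaptor LAT, and tuned by coreceptors such as CD4 and CD8. B cells use the CD79 pair for the same task, and NK cells and cytotoxic T cells kill through perforin and granzymes. The liver normally holds resident NK and T cells as a minor part of its cells, beside a large majority of hepatocytes. In bulk RNA, more cells of a type and more RNA per cell cannot be told apart.

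Signals are given as log2 of the processed intensity relative to each array's 75th percentile, which was an intensity of 333 in WT and 309 in CREBH-Tg, so that 0 stands for that percentile. The share of spots well above background was 55.4% in WT and 58.3% in CREBH-Tg. Ratios are log2 of CREBH-Tg over WT. The error given is the standard deviation (SD) of log2 ratios between single spots, from 276 probes that were spotted repeatedly. Genes were split by signal into 3 classes of equal size. The SD was 0.20 for the dimmest class, 0.085 for the middle one and 0.048 for the brightest, and the 95% range of the noise was 0.39, 0.17 and 0.095 on either side of 0. This spot noise leaves out differences between animals, pools, labelling reactions and hybridisations. Each probe has its own efficiency of binding, so a difference in signal between genes is not read as a difference in RNA level. The summed signals given for marker lists are weighted by these efficiencies.

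Of the 37 members, 30 were well above background on both arrays through the same probe, 1 on the CREBH-Tg array only, 1 on the WT array only and 5 on neither. The corresponding shares over all named genes were 67.2% on both arrays and 27.9% on neither. The 5 members that were on neither array were Cd247, Cd8a, Cd27, Il7r and Ncr1. They encode the zeta chain of the T cell receptor, the CD8 alpha chain, a costimulatory receptor, the interleukin 7 receptor and the NK activating receptor NKp46. The defining T cell genes Cd3d, Cd3e and Cd3g and the defining B cell genes Cd79a, Cd79b and Ms4a1 were measured on both arrays. Of the NK-defining genes Ncr1, Klrb1c and Klrd1, only Klrd1 was well above background, and on the CREBH-Tg array alone. The label of NK cells therefore rests here on granule and cytotoxic genes, which T cells express as well.

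**Figure D1:**
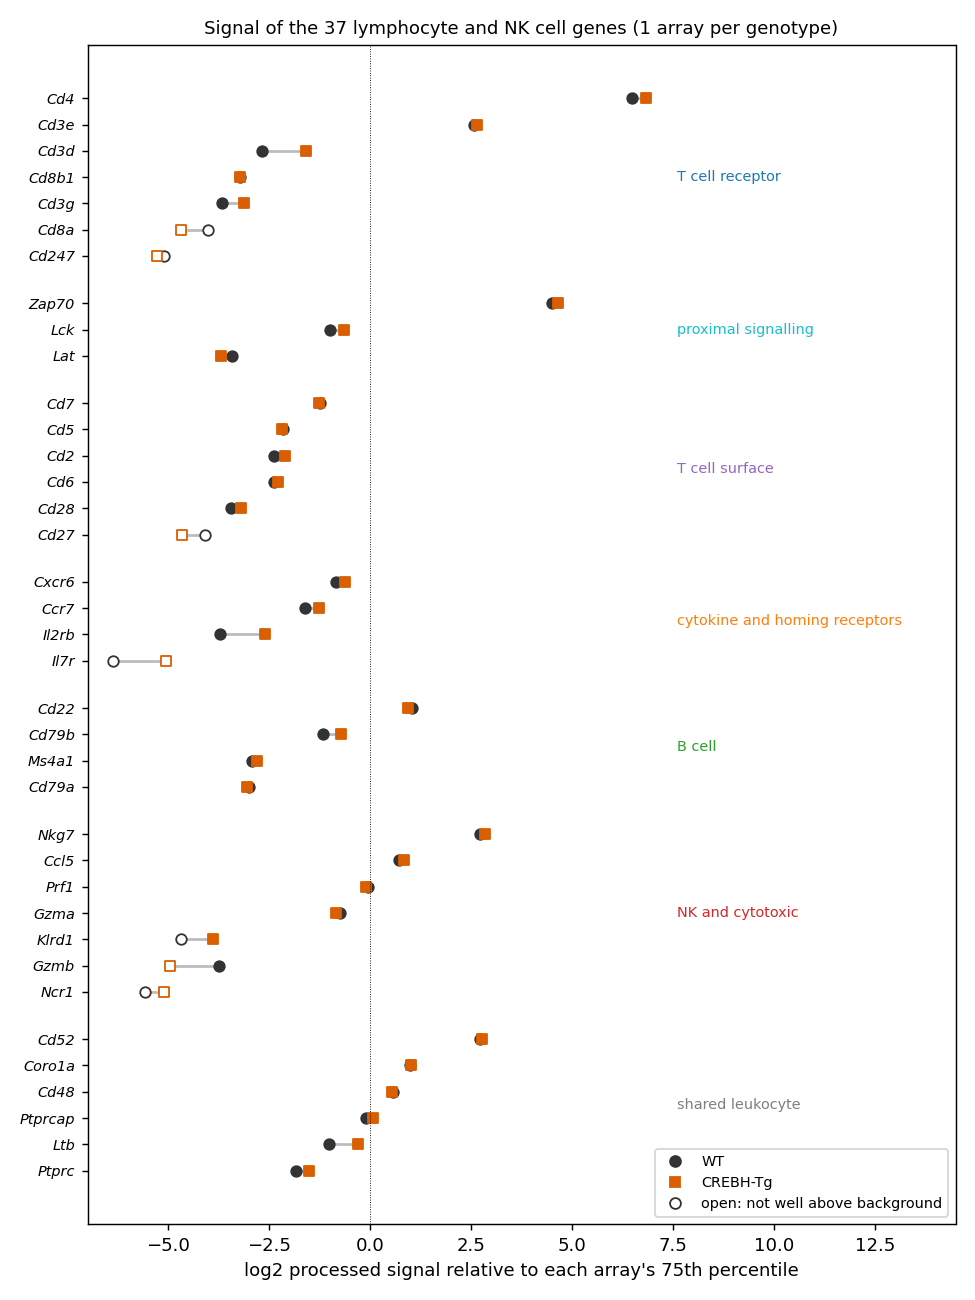
Log2 processed signal of each of the 37 members, relative to each array's 75th percentile, in WT (circles) and CREBH-Tg (squares), for the gene's brightest measured probe, grouped by role. Open symbols are not well above background, as for both arrays of Cd247, Cd8a, Cd27, Il7r and Ncr1, and the longest filled pairs are those of Il2rb and Cd3d.

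Among the 30 measured members, 2 were at least 2-fold higher in CREBH-Tg and 0 at least 2-fold lower, where 0.663% of 13881 measured genes were 2-fold higher and 0.67% 2-fold lower. At 1.5-fold the members counted 3 higher and 0 lower, against 2.33% and 2.23% of all genes. Log2 ratios of the members ran from -0.26 for Lat to 1.11 for Il2rb, with a median of 0.14 against 0.027 over all genes. Of the 30, 21 lay above 0 (20 to 27 over the 5 other scalings tried), or 70.0% beside 56.2% of all genes. Outside the 95% range of spot noise lay 9 members above 0 and 0 below, where 21.1% of all genes lay above that range and 13.4% below it. The 9 were Cd3d, Cd3g, Cd4, Zap70, Il2rb, Cd79b, Nkg7, Ltb and Ptprcap. At the lowest of the other scalings, Zap70 (0.094), Nkg7 (0.052) and Ptprcap (0.11) fell within the range of their class. With spot noise taken instead from repeated probes within 0.5 log2 units of the member's own signal, a choice made after the values were seen, the count was 10. Of these, 8 were in both counts, Lck and Ccr7 were added and Ptprcap was not.

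The members were mostly dim, and the dim ones spread most. Of the 30, 18 were in the dimmest class, with log2 ratios from -0.26 to 1.11 and a median of 0.24, where all genes of that class had a median of -0.0026. Both members at 2-fold, Cd3d and Il2rb, lay in this class, in which 1.21% of all genes were 2-fold higher and 1.77% 2-fold lower. Of the 18, 12 lay above 0, beside 49.8% of all genes of the class. Spot noise was exceeded by 4 of the 18, all upward, beside 10.2% of the class upward and 11.2% downward. In the middle class 7 members had a median of 0.028 against 0.011 over all genes there, and 4 of them lay above 0, beside 52.7%. Ltb and Ptprcap exceeded spot noise there, beside 16.9% upward and 13.5% downward in the class, and no member reached 2-fold, beside 0.475% higher and 0.108% lower. The 5 members of the brightest class, Cd4, Zap70, Nkg7, Cd52 and Cd3e, had log2 ratios from 0.067 to 0.34 with a median of 0.11, against 0.051 in the class. All 5 lay above 0, beside 66.1% of the class, and Cd4, Zap70 and Nkg7 exceeded spot noise, beside 36.1% upward and 15.5% downward. For Zap70 and Nkg7 this did not hold under every scaling, with lowest values of 0.094 and 0.052. None of the 5 reached 2-fold, beside 0.303% higher and 0.13% lower.

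**Figure D2:**
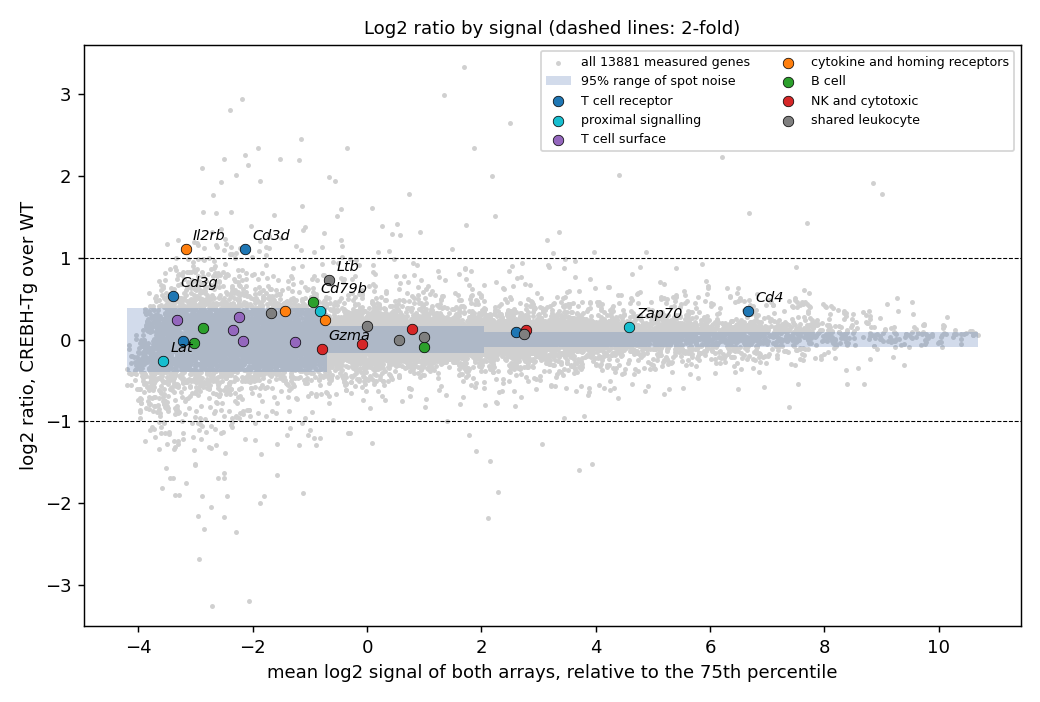
Log2 ratio of CREBH-Tg over WT against the mean log2 signal of both arrays for 13881 measured genes (grey) and the 30 measured members (coloured by role), with the 95% range of spot noise shaded and 2-fold marked by dashed lines. Il2rb and Cd3d lie just above the upper line at low signal, no member lies below the lower line, and the bright members Zap70 and Cd4 lie above the shaded range.

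The CD3 chains, which carry the signal of the T cell receptor, did not share 1 ratio. Cd3d (NM_013487), the delta chain, had an intensity of 51.6 in WT and 103 in CREBH-Tg, or log2 signals of -2.69 and -1.59. It was thus 2.14-fold higher in CREBH-Tg, a log2 ratio of 1.1 with a spot-noise SD of 0.20, and ranked 77 from the highest among 13881 genes. Cd3g, the gamma chain, stood at -3.66 in WT and -3.13 in CREBH-Tg, which is 1.44-fold higher. Its log2 ratio of 0.53 lay just outside the 95% range of spot noise near its own signal (0.52). Cd3e, the epsilon chain, was in the brightest class, at 2.57 in WT and 2.66 in CREBH-Tg. Its log2 ratio of 0.093 lay within the 95% range of spot noise, 0.095. The probe of Cd247, the zeta chain, read -5.10 and -5.29 and was not well above background on either array.

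Cd4 and Cd8b1 were the coreceptor genes that could be measured. Cd4 had 2 measured probes that differed in ratio and in signal. The brighter read an intensity of 29933 in WT and 35220 in CREBH-Tg, a log2 ratio of 0.34, at percentile 96.3 of the signals of all measured genes. The dimmer read 47.5 and 45.6, and after scaling its log2 ratio was 0.050 with an SD of 0.13 over 8 spots. The summary value of Cd4 is that of the brighter probe, and no level of Cd4 is read from the 2 probes because of their gap. Cd8b1, the CD8 beta chain, read -3.21 in WT and -3.23 in CREBH-Tg, a log2 ratio of -0.017 that turned positive under some scalings (-0.078 to 0.072). Both probes of Cd8a were not well above background. The 5 measured genes of the receptor and coreceptors had a median log2 ratio of 0.34, which is the value of the brighter Cd4 probe. Over these 5 it was 0.093 with the dimmest probe of each gene and 0.20 with the mean over probes. With no filter on dim probes, which takes in Cd247 and Cd8a, it was 0.093. With a stricter filter, which left only the brighter of the 5, it was 0.22.

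Cd3d and Cd3g lie head to head on chromosome 9, with RefSeq start sites 1355 bases apart in the GRCm38.p6 assembly. Their upstream sequences are shown because these neighbours both had ratios above the range of spot noise. Each is the 250 bases before the start site, read 5′ to 3′ along the gene, Cd3d at chr9:44981536-44981785 on the plus strand and Cd3g at chr9:44980432-44980681 on the minus strand. Capitals mark matches on either strand to GGAAG, the core bound by ETS factors, which is among 6 motifs searched. Of the others, those marked where they occur were TGTGGT, bound by RUNX factors, TGACGT, the core of a cyclic AMP response element (CRE), a class of site bound by CREB-type factors, and the NF-kB motif. The palindromic CRE, TGACGTCA, and TATAA were counted as well.
Cd3d: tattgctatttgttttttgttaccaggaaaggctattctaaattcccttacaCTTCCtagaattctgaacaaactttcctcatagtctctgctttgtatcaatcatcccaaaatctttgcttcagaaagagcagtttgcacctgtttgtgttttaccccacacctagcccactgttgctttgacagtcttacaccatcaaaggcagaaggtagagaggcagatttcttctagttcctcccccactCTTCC
Cd3g: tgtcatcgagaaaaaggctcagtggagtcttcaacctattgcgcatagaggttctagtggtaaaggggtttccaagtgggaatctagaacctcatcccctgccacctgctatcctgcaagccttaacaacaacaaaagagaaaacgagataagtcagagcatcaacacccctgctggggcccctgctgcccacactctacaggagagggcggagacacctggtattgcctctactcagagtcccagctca
The Cd3d window holds 2 matches to GGAAG, both as its reverse complement, and 0 to the other 3 that are marked. The Cd3g window holds 0 matches to all 4. Promoter windows were held for 23 of the 37 members, as 29 windows. GGAAG occurred in 72.4% of these and in 64.1% of all 32851 windows, and TGTGGT in 34.5% and 14%. TGACGT occurred in 3 of the 29, those of Cd3e, Prf1 and Zap70, or 10.3% against 6.47% of all windows. TATAA occurred in 6.9% of the member windows and 22.8% of all windows. These matches describe letters and are not evidence of binding.

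Of the proximal signalling genes, Zap70 and Lck were higher in CREBH-Tg and Lat was lower, each by at most 1.27-fold. Zap70, the kinase recruited to the CD3 and zeta chains, had 2 bright probes that gave nearly the same ratio. The first read 4.50 in WT and 4.66 in CREBH-Tg, and the other 3.54 and 3.70, for log2 ratios of 0.16 and 0.15 with a spot-noise SD of 0.048. Under normexp background correction the ratio was 0.078. Lck, the kinase that starts the cascade, read -0.998 in WT and -0.65 in CREBH-Tg, a log2 ratio of 0.35 within the 95% range of its class (0.39) and outside that near its own signal (0.25). Lat, the adaptor downstream of ZAP70, read -3.43 and -3.69. Its log2 ratio of -0.26 was the lowest of all measured members, lay within spot noise and was 0.083 under normexp.
The upstream window of Zap70 at chr1:36761548-36761797 (GRCm38.p6, plus strand) is shown because, of the 29 member windows, it alone held the palindromic CRE TGACGTCA, found in 1.55% of all windows. Capitals mark GGAAG and the CRE, in which TGACGT matches on both strands and overlaps itself.
Zap70: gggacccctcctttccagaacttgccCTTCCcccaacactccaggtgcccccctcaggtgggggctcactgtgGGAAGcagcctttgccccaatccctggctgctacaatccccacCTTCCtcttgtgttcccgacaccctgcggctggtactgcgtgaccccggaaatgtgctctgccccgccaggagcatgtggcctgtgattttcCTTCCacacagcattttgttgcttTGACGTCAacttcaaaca
The CRE begins 18 bases before this start site, and Zap70 has 2 other windows in the table that do not hold it.

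Surface molecules of T cells differed less than spot noise in every measured member. Cd2, an adhesion receptor, read -2.38 in WT and -2.10 in CREBH-Tg, a log2 ratio of 0.28. A second Cd2 probe was not well above background on either array, and its 10 spots gave ratios with an SD of 0.49, which shows how wide single spots scatter near background. Cd28, the main costimulatory receptor, read -3.44 and -3.20, a log2 ratio of 0.24. Cd6 had probes at 0.11 and -0.12. Cd5, an inhibitory partner of the receptor, read -2.16 and -2.18, and Cd7 read -1.24 and -1.27. Their log2 ratios of -0.018 and -0.028 turned positive under some scalings, up to 0.071 for Cd5 and 0.061 for Cd7. Both probes of Cd27 were not well above background.

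Among cytokine and homing receptors the 3 measured members, all in the dimmest class, lay above 0 in every scaling. In that class 49.8% of all genes lay above 0 at the 75th percentile scaling. Il2rb was the highest of all 30 members. Il2rb (NM_008368), the beta chain shared by the receptors of interleukins 2 and 15, had an intensity of 25.2 in WT and 50.4 in CREBH-Tg, or log2 signals of -3.72 and -2.61. It was 2.16-fold higher, a log2 ratio of 1.11, and ranked 75 from the highest of 13881 genes. The WT signal lay near the floor of the array, where the lowest signal well above background was -4.13 in WT and -4.55 in CREBH-Tg. Spot noise at this signal had an SD of 0.26 over 22 repeated probes. Ccr7, which guides naive T cells to lymph nodes, read -1.61 and -1.26, a log2 ratio of 0.35 that was 0.14 under normexp. It lay within the 95% range of its class (0.39) and outside that near its own signal (0.31). Cxcr6, a homing receptor of liver-resident lymphocytes, had probes at 0.23 and 0.57, the brighter reading -0.85 in WT and -0.62 in CREBH-Tg. The ratio of the brighter lay within the 95% range of its class, and the value of Cxcr6 was 0.041 under normexp. The Il7r probe read -6.37 and -5.05 and was not well above background on either array, so its gap of 1.32 is not counted.

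Whether Cd3d and Il2rb reached 2-fold depended on the signal used. Under normexp, which starts from the median spot signal instead of the processed signal and adds an offset of 50 that shrinks ratios of dim genes by construction, the log2 ratio was 0.61 for Cd3d and 0.44 for Il2rb. Over the 5 other scalings both stayed above 2-fold, from 1.04 to 1.19 for Cd3d and 1.05 to 1.20 for Il2rb. Each rests on 1 spot per array.

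**Figure D3:**
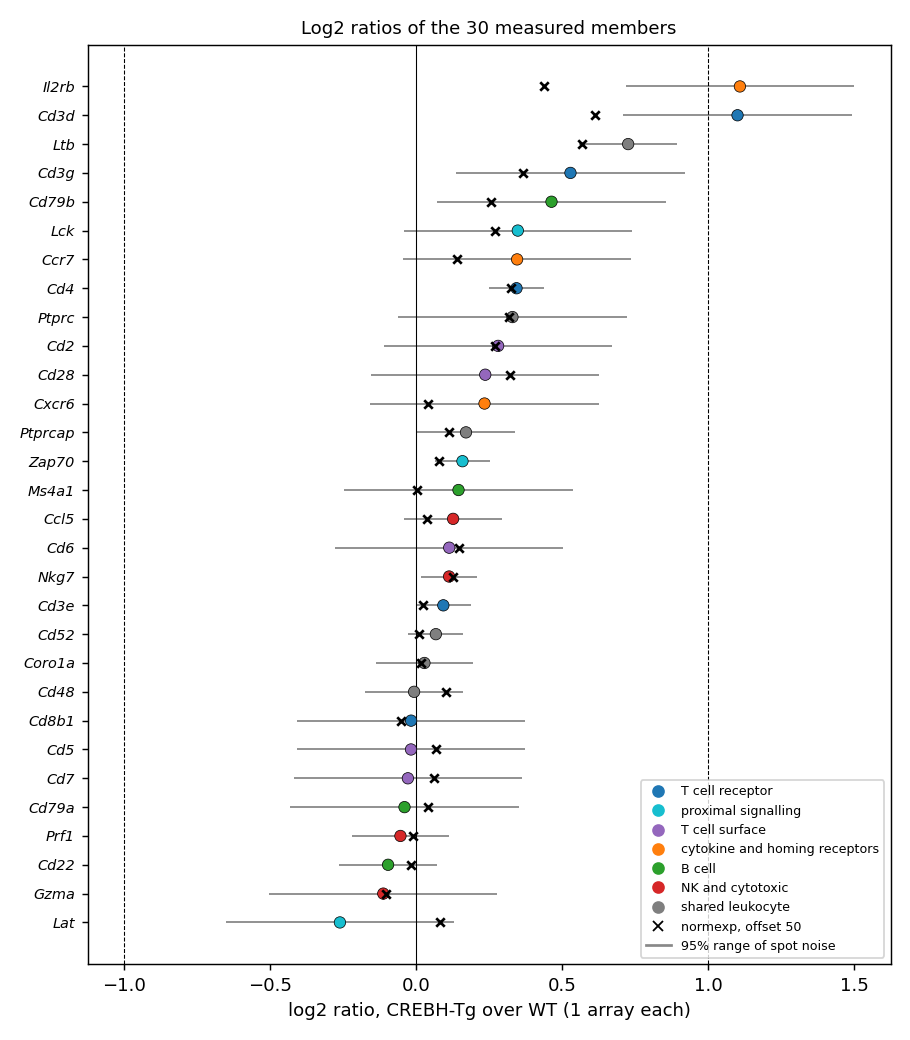
Log2 ratio of CREBH-Tg over WT for the 30 measured members (points coloured by role), with bars for the 95% range of spot noise in the gene's signal class, crosses for the value under normexp, and dashed lines at 2-fold. Il2rb and Cd3d lie beyond the right dashed line, their crosses at 0.44 and 0.61 do not, and the 9 members below 0 lie within their bars.

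Of 4 B cell genes, 2 lay above 0 and 2 below, and their median of 0.053 ran from -0.0083 to 0.14 over the other scalings. The 2 chains of the B cell receptor complex differed from each other in ratio. Cd79b read -1.18 in WT and -0.71 in CREBH-Tg, 1.38-fold higher with a log2 ratio of 0.46, outside spot noise and 0.26 under normexp. Cd79a read -3.00 and -3.04, a log2 ratio of -0.040 within spot noise that turned positive under some scalings. Ms4a1, which encodes CD20, read -2.94 and -2.79, a log2 ratio of 0.14. Cd22, an inhibitory receptor of B cells, read 1.04 and 0.94, a log2 ratio of -0.096 that stayed below 0 in all scalings and within spot noise.

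NK and cytotoxic genes also lay on both sides of 0. The median log2 ratio of their 4 measured members was 0.029, and it ran from -0.031 to 0.12 over the other scalings. Gzma, granzyme A, read -0.74 in WT and -0.85 in CREBH-Tg, and Prf1, perforin, read -0.058 and -0.11. Their log2 ratios of -0.11 and -0.054 lay within spot noise, and that of Prf1 turned positive under some scalings. Ccl5, a chemokine released by T and NK cells, read 0.72 and 0.85, a log2 ratio of 0.13 within spot noise. Nkg7, a granule membrane protein, had probes that disagreed: the brighter read 2.73 and 2.84 for a log2 ratio of 0.11, and the dimmer -3.10 and -2.54 for 0.56.

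The 2 members seen on 1 array only are of this group, Gzmb on the WT array and Klrd1 on the CREBH-Tg array. Gzmb, granzyme B, read -3.74 in WT and -4.97 in CREBH-Tg, where it was not well above background. Its bound was 1.76-fold lower there, or 0.81 on the log2 scale, taken from the dimmest probe called well above background on that array. Klrd1, the CD94 receptor chain, read -3.90 in CREBH-Tg and -4.68 in WT, where it was not well above background. Its bound was 1.17-fold higher in CREBH-Tg, or 0.23 on the log2 scale. That lies within the 95% range of spot noise of the dimmest class (0.39), so no direction is read from it. Both bounds are approximate, because some probes above that lowest signal are still not called well above background. Of all named genes, 3.69% were detected in CREBH-Tg alone and 1.19% in WT alone.

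Of 6 genes shared by many leukocytes, Ltb and Ptprcap were higher by more than spot noise. Ltb (NM_008518), lymphotoxin beta, a lymphocyte surface cytokine that organises lymphoid tissue, had an intensity of 164 in WT and 251 in CREBH-Tg, or log2 signals of -1.03 and -0.30. It was 1.65-fold higher, a log2 ratio of 0.73 against a spot-noise SD of 0.085, and 0.57 under normexp. Ptprc, the common leukocyte antigen CD45, read -1.84 and -1.51, a log2 ratio of 0.33 within the 95% range of its class. Ptprcap, a partner of CD45, read -0.094 and 0.076, a log2 ratio of 0.17 just outside the range of its class and within that near its own signal (0.18). Cd52, a small surface glycoprotein, read 2.71 and 2.78, Coro1a, an actin regulator, 0.99 and 1.02, and Cd48, a ligand of NK receptors, 0.56 and 0.55. Their log2 ratios of 0.067, 0.028 and -0.0070 lay within spot noise, and those of Coro1a and Cd48 changed sign under some scalings.
The upstream window of Ltb is shown at chr17:35194257-35194506 (GRCm38.p6, plus strand) because it was the 1 member window with the NF-kB motif, which 0.14% of all windows held. Capitals mark 4 matches to GGAAG on either strand and, 87 bases before the start site, the NF-kB motif as its reverse complement.
Ltb: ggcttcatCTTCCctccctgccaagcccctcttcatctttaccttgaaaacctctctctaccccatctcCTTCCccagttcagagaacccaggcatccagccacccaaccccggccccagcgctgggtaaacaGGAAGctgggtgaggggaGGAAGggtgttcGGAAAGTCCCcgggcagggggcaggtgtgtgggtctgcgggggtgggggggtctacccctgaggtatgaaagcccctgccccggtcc

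Probes of the same member agreed in direction more than in size. Of 6 members with 2 measured probes, both lay on the same side of 0 in 5, and those of Cd6 did not. The gap in log2 ratio was smallest for Zap70 and largest for Nkg7 among these 6. Using the dimmer probe of each gene instead, a choice made after the values were seen, left the median at 0.14 and the count at 2-fold at 2.

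Genes related to the members were counted in 8 further lists, which hold 126 genes, of which 85 were measured on both arrays. Of the 85, 2 reached 2-fold higher in CREBH-Tg (Derl3 and Cx3cr1) and 1 reached 2-fold lower (Themis), and their median log2 ratio was 0.088. Other genes of T cell receptor signalling had a median of 0.23 over 15 measured of 26 listed (0.17 to 0.32 over the other scalings). That median was 0.13 with the mean over probes, 0.099 under normexp and 0.034 with the dimmest probe of each gene. Over other sets of genes it was 0.072 with a stricter filter on dim probes and 0.051 with no filter. The stricter filter left only the brighter of the 15, and no filter took in all 26 listed. Of the 15, of which 13 were in the dimmest class, 6 were higher and 1 lower by more than spot noise, beside 10.2% and 11.2% of all genes of that class. The lower gene was Themis, a regulator of thymic selection, at -2.68 in WT and -3.95 in CREBH-Tg, 2.41-fold lower. Its log2 ratio of -1.27 was -0.18 under normexp. The checkpoint and costimulatory genes Ctla4, Pdcd1, Tigit, Cd226 and Cd96 were not called well above background.

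Lists of lymphocyte transcription factors and of other B cell, NK and pan-leukocyte genes had medians near 0. For transcription factors the median was -0.016 over 9 genes (-0.077 to 0.073 over the other scalings), and the gene farthest from 0 was Id2, at 3.92 and 4.56, or 1.56-fold higher. Id2 is needed for NK cells and is also expressed by hepatocytes. For other B cell genes it was -0.036 over 10 genes (-0.097 to 0.053), with the coactivator Pou2af1 at -3.28 and -3.94, or 1.58-fold lower. The log2 ratio of Pou2af1 was -0.66, and -0.18 under normexp. Blnk of this list read 1.56 and 2.10, a log2 ratio of 0.54. By more than spot noise 1 of the 10 was higher, Blnk, and 1 lower, Pou2af1, beside 21.1% and 13.4% of all genes. For other NK and cytotoxic genes the median was -0.010 over 6 measured of 19 listed (-0.071 to 0.078), with the receptor Cd244a at 2.96 and 2.62, or 1.27-fold lower. For pan-leukocyte genes it was -0.0017 over 15 genes (-0.063 to 0.087), with the tetraspanin Cd53 at -2.46 and -2.02, or 1.36-fold higher.

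Plasma cell genes, chemokine genes and antigen presentation genes were the remaining related lists. The plasma cell list had a median of 0.19 over 5 genes, and of 0.064 under normexp. Derl3, a component of endoplasmic reticulum degradation that is abundant in secretory cells, read -0.42 in WT and 0.96 in CREBH-Tg, 2.61-fold higher, and 1.20 on the log2 scale under normexp. Jchain, which links antibody subunits, read -1.82 and -1.26. Cytokines, chemokines and their receptors had a median of 0.13 over 12 genes, which was 0.053 under normexp. With the stricter filter, which left only the brighter of the 12, it was 0.023, against 0.035 over all genes with that filter. Among the 12 was the chemokine receptor Cx3cr1 at -2.92 and -1.87, 2.07-fold higher, or 0.56 on the log2 scale under normexp and 0.99 at the lowest of the other scalings. Antigen presentation genes had a median of 0.13, and 13 of 13 lay above 0 (9 to 13 over the other scalings), beside 66.1% of the brightest class, which holds 10 of them. Of the 13, 4 exceeded spot noise, all upward, beside 36.1% of that class. H2-Eb1, a class II chain, lay farthest from 0 at 4.44 and 4.80, 1.28-fold higher.

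Markers of other cells in liver were set beside the members, and their part in the members' ratios was not tested. Macrophage and Kupffer cell markers had a median log2 ratio of -0.041 over 15 of 16 genes (-0.10 to 0.048 over the other scalings), and their summed signal, in units of the 75th percentile, was 234 in WT and 212 in CREBH-Tg. Without the brightest, Cd5l, it was 178 and 158. By more than spot noise, 1 of the 15 markers was higher and 4 were lower, and 10 lay within it. In the brightest class, which holds 12 of them, 36.1% of all genes were higher and 15.5% lower by this measure. Marco, a scavenger receptor, was farthest from 0 at 3.93 and 2.97, or 1.94-fold lower. Itgam had a log2 ratio of -0.56, beyond spot noise. Neutrophil markers had a median of 0.059 over 6 of 10 genes (-0.0017 to 0.15), and 3 of the 6 lay below 0. Camp was 1.30-fold higher, and Csf3r, the brightest of them, had a log2 ratio of -0.31, beyond spot noise. The summed signal was 219 in WT and 181 in CREBH-Tg, and 20.5 and 21.3 without Csf3r. Cxcr2, Mpo and Ngp of this list were not called well above background. Dendritic cell markers had a median of 0.064 over 6 of 9 genes, with Itgax at 1.33-fold higher and Xcr1 and Ccl22 not well above background. Siglech, at a log2 ratio of -0.16 beyond spot noise, made up nearly all of their summed signal, which was 283 and 255 with it and 1.55 and 1.67 without it. In WT, Siglech read 8.14 and Csf3r 7.63, among the signals of hepatocyte markers such as Apoa1 (8.18). No amount of dendritic cells or neutrophils is read from these 2 probes. Red cell and platelet markers had a median of 0.10 over 5 of 8 genes, with Ppbp at 1.77-fold higher and Alas2 at a log2 ratio of -0.37, beyond spot noise. Their summed signal was 323 and 332, and 57.3 and 53.2 without the brightest, Hba-a1.

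Of the structural and parenchymal lists, only adipocyte markers held genes 2-fold apart. The median was 0.052 for 8 endothelial markers (-0.0086 to 0.14 over the other scalings), with Emcn at 1.40-fold higher and summed signals of 106 and 116. Of these 8, 6 lay above 0, beside 56.2% of all genes. By more than spot noise 2 were higher and 1 lower, beside 21.1% and 13.4% of all genes. Clec4g, at 0.25, was higher and Lyve1, at -0.34, lower by more than spot noise. Cdh5, at -0.15, lay within it. The median was 0.16 for 8 stellate and fibroblast markers (0.10 to 0.25 over the other scalings), with Lum at 1.65-fold higher and summed signals of 75.9 and 79.7. Of these 8, 7 lay above 0, and 4 were higher and 0 lower by more than spot noise. In the middle class, which holds 5 of them, 52.7% of all genes lay above 0, and 16.9% were higher and 13.5% lower by more than spot noise. For 8 hepatocyte markers the median was 0.070 (-0.051 to 0.16), with Apoa1 at 1.27-fold higher and summed signals of 4552 and 4820. Adipocyte markers had a median of 0.38 over 5 of 7 genes and summed signals of 7.56 and 8.64. Adipoq was 4.61-fold and Retn 2.94-fold higher in CREBH-Tg, and Cidea 3.67-fold lower. These 3 genes were in the dimmest class, and under normexp their log2 ratios were 0.99, 0.79 and -1.14, so that only Cidea stayed past 2-fold.

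**Figure D4:**
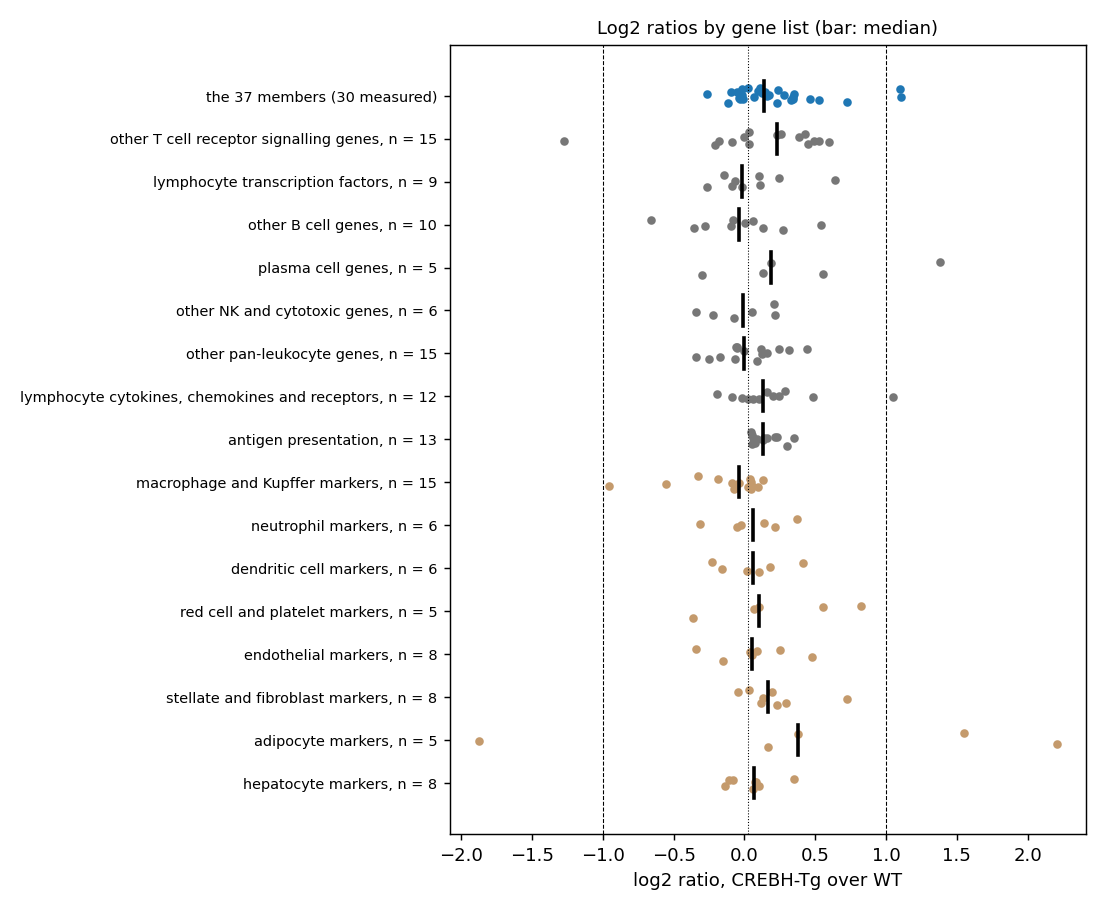
Log2 ratio of CREBH-Tg over WT of each measured gene (points) in the members (blue), the 8 related lists (grey) and the 8 cell type marker lists (brown), with the median of each list as a black bar, the median of all genes as a dotted line and 2-fold as dashed lines. The members' median is 0.14, that of other T cell receptor signalling genes 0.23 (0.034 with the dimmest probe of each gene), and that of macrophage and Kupffer markers -0.041, which turned positive under some scalings.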

How the data were processed

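Liver RNA of 1 WT and 1 CREBH-Tg pool was hybridised to Agilent arrays in 1 colour. Agilent Feature Extraction 10.10.1.1 read the scans, with probes annotated on mm9, per the file headers. Its processed signal, as deposited, is an intensity, background-subtracted and detrended within each array, per the file headers. The authors' value table is also intensity, equal to the processed signal times 2.59 (WT) or 2.68 (CREBH-Tg). No source used here says how these constants were set.

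The log2 processed signal was scaled to each array's 75th percentile. Control spots and 300 outlier spots (3 of members) were left out, and spots of a probe averaged. Detection of a probe required more than 50% of its spots to be called well above background. Of 55677 probes, 27233 were named by RefSeq transcript accession (GRCm38.p6, names only). A gene's value is its brightest probe detected on both arrays. Members and gene lists were chosen with earlier results of these data known. All members are named. In every other list, up to 4 genes at least 2-fold apart, or else the gene farthest from 0, are named. Jchain, Prdm1, Blnk, Csf3r, Siglech, Alas2, Hba-a1, Lyve1, Cdh5, Clec4g, Cd5l, Itgam and genes named as not detected were chosen after their values were seen. The gene summary was tested on simulated data.

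The alternatives were 5 scalings (median, 75th percentile of detected probes, quantile, loess with a span of 0.3, and the authors' value table), normexp with an offset of 50 on the median spot signal, the mean or dimmest probe, 2 filters, and thresholds of 1.5-fold and 3-fold. No test was run, since each genotype has 1 array, and the number of arrays limits the precision. Promoter windows are RefSeq's, on GRCm38.p6, and the motifs and printed windows were chosen after the ratios were seen. Normexp was run in limma 3.58.1 (R 4.3.3), loess in statsmodels 0.14.6, and the rest in Python 3.11.15.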

Additional observations from a re-analysis of the deposited data

How the results depend on the processing

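The count of 2 members at least 2-fold higher was 0 under normexp, 0 with the stricter filter on dim probes, which left 11 members measured, and 0 at a threshold of 3-fold. With no filter on dim probes the count of members at least 2-fold lower was 1 in place of 0. That setting and the 1.5-fold threshold gave 3 higher members, and all other settings tried gave 2 higher and 0 lower. The median log2 ratio of the members was 0.074 with the authors' value table, 0.092 under normexp and 0.22 with median scaling, and that of all genes was -0.034, 0.026 and 0.12. The share of members above 0 was 90.0% with median scaling and 86.7% under normexp, against 70.0%, and that of all genes 73.4% and 57.3%, against 56.2%. Of 21 members above 0, 20 kept their sign in all 5 other scalings, and of 9 below 0, 3 did. Over all genes, median scaling gave 115 at least 2-fold higher and 77 lower, in place of 92 and 93. No paired analysis was possible because each genotype has 1 array. Signal over background limits the dim members most.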
